A study of Mus musculus with 20 samples.

Results

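In 2 mouse myeloma lines, 10 genes with very different levels in the bortezomib-resistant and the bortezomib-sensitive culture of a line were followed across every array. The genes are Cox6a2, Wwc2, Osr2, Npw, Armcx2, Tmsb10, Zscan12, Reln, Lxn and Gja1, out of 19057 genes named on the array, of which 11802 had a probe among the brighter 50% of all probes. They were chosen from these same data for large resistant minus sensitive differences within 1 line, so those differences are a description here and carry no test. All 19 probes annotated to the 10 symbols were read, and 15 of them were among the brighter 50%. Each gene is represented by its probe with the highest mean signal, and its other probes are given where they exist.

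The lines 589bm and 595sp are, per the labels, multiple myeloma derived cells of Bcl-XL/Myc double transgenic genotype on a background of FVBN crossed with BL/6. Bortezomib is a proteasome inhibitor used against multiple myeloma. The groups were the resistant and the sensitive culture of each line, taken at 0 h without drug and after 2, 8, 16 and 24 h in 33 nM bortezomib, with 1 array per culture and time. The genotype and the drug were shared by all 4 cultures. Each resistant culture is a single culture, the labels name no separate cultures behind the times, and every array later than 0 h had the drug, so drug and time in culture cannot be told apart.

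The resistant 2 h array of 589bm carried almost no signal and was left out, which leaves 19 arrays, 9 resistant and 10 sensitive. Its mean signal was 140, against 361 to 735 on the others, and its median correlation with them was 0.202, against at least 0.947 among the others. The 5 arrays titled as 595sp resistant carry characteristics with another sensitivity or time than their titles, whereas their source names and descriptions match the titles. Each of the 19 arrays was most like another array of its own culture. Levels are log2 normalized intensities, on which the median of all probes is 6.51 on every array. A probe near that value lies in the dim part of the array, where the offset of the background correction compresses differences, and the files give no detection p-values, so no gene is called absent. In bulk RNA, fewer cells of a type and less RNA per cell cannot be told apart.

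Of 9 plasma cell markers, 4 (Irf4, Xbp1, Tnfrsf13b and Mzb1) had a mean above log2 8 in each of the 4 cultures. The defining plasma cell genes Sdc1, Prdm1, Jchain and Tnfrsf17 had means of 6.23 to 7.38. None of 6 endothelial and none of 10 muscle markers exceeded log2 8 in any culture.

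The 10 genes belong to unrelated systems. Cox6a2 encodes the heart and skeletal muscle form of a subunit of cytochrome c oxidase, the last complex of the respiratory chain. Tmsb10 encodes a beta thymosin, a small peptide that binds actin monomers, and Gja1 encodes connexin 43, a channel protein of gap junctions. Reelin, the product of Reln, is a secreted glycoprotein that acts through the receptors Vldlr and Lrp8 and the adaptor Dab1 and is best known for the layering of the brain. Npw encodes the precursor of neuropeptide W, a ligand of G protein-coupled receptors. Wwc2 belongs to the WWC family of scaffold proteins that act in the Hippo pathway. Osr2 and Zscan12 encode zinc finger proteins, Osr2 being a factor of the odd-skipped family that acts in palate and limb development. Latexin, the product of Lxn, inhibits carboxypeptidases, and in mice it is known as a regulator of the number of haematopoietic stem cells. Armcx2 belongs to a family of X-linked genes with armadillo repeats.

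The start regions of 5 of the genes are shown for comparison between genes whose levels were alike, opposite or alike in part. Each sequence is the 250 bases before a gene's start, from RefSeq on the build GRCm38.p6, read 5′ to 3′ on the strand of the gene, with every CG in capitals. Start regions were matched by symbol for 7 of the 10 genes. Lxn and Gja1 were both bright only in the sensitive culture of 595sp, Reln was dim only there, and Wwc2 and Armcx2 were both dim in the resistant culture of 589bm. In 595sp Wwc2 was bright in both cultures and Armcx2 was dim in both, and their Pearson correlation over the 19 arrays was 0.506.
Lxn, chr3:67463908-67464157, minus strand: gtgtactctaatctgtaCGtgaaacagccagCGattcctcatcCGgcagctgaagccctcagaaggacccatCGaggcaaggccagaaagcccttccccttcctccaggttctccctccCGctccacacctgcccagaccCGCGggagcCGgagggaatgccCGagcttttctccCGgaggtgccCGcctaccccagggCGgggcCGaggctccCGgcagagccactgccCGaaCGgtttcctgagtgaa
Gja1, chr10:56377050-56377299, plus strand: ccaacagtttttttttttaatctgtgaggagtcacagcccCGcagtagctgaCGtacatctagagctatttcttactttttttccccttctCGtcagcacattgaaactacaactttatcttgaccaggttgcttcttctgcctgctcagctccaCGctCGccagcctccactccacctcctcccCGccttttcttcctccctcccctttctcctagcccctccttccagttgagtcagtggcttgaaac
Reln, chr5:22344706-22344955, minus strand: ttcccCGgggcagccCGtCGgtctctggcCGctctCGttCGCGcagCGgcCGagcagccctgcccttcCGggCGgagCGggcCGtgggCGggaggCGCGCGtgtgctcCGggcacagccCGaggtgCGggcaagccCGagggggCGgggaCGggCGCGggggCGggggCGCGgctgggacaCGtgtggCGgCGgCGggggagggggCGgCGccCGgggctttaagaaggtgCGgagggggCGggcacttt
Wwc2, chr8:47990545-47990794, minus strand: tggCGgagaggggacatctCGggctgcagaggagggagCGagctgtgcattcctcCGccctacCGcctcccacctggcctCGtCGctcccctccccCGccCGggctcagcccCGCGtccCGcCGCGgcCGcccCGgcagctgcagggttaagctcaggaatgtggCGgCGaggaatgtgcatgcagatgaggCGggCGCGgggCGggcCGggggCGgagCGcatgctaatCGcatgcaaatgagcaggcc
Armcx2, chrX:134809222-134809471, minus strand: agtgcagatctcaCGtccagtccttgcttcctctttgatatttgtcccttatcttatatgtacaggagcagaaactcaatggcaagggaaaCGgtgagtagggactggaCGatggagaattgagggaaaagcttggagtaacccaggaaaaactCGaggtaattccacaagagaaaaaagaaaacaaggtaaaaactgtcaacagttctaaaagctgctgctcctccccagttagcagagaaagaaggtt
The Lxn region holds 16 CG and the Gja1 region 6, although the levels of both genes followed the cultures alike. The Reln region holds 37, more than 98.0% of the 32851 start regions in the table, whose median is 6 with quartiles of 2 and 16. Wwc2 has 26 and Armcx2 has 4. Neither TATAAA nor CCAAT, searched on both strands, is in any of the 9 start regions of the 7 genes, while 12.4% and 33.8% of all start regions hold them. Such a match or its absence describes these letters only.

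Resistant and sensitive arrays did not overlap in 8 of the 10 genes in 589bm and in 5 of 10 in 595sp, where the same held for 12.8% and 11.2% of the 22641 brighter probes. Because the genes were chosen on this contrast, nothing is read from those counts. For Wwc2, Osr2 and Gja1 the arrays were apart in both lines, lower in the resistant culture each time, though a second Osr2 probe overlapped in 595sp. The share of all brighter probes apart in both lines was not computed, so nothing is read from this either.

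**Figure D1:**
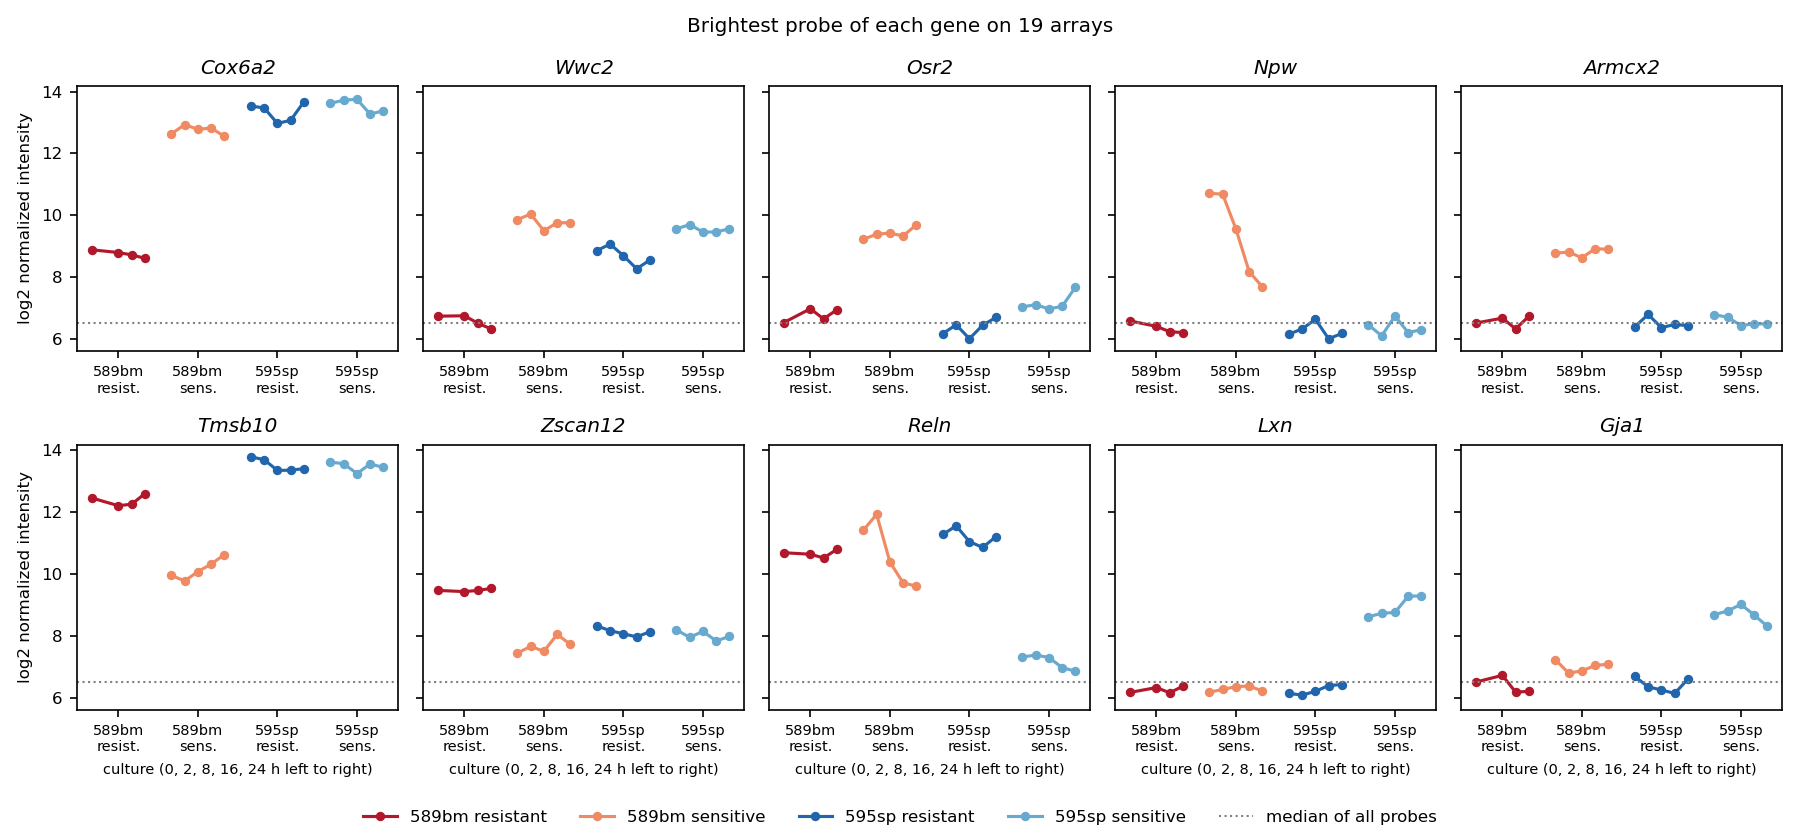
Log2 normalized intensity of the brightest probe of each gene on 19 arrays, grouped by culture with times in order from left to right; the dotted line is the median of all probes, at 6.51. Cox6a2 and Wwc2 sit lowest in 589bm resistant, Reln sits lowest in 595sp sensitive, and Npw and Reln run downward over time in 589bm sensitive.

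Cox6a2 and Wwc2 were lowest in the resistant culture of 589bm. Cox6a2 read 8.88, 8.79, 8.72 and 8.61 at 0, 8, 16 and 24 h in 589bm resistant, against 12.63, 12.93, 12.78, 12.82 and 12.55 at 0, 2, 8, 16 and 24 h in 589bm sensitive. Both 595sp cultures were brighter than either 589bm culture, at 12.97 to 13.67 in the resistant and 13.27 to 13.75 in the sensitive culture, and they overlapped. The matched difference within 589bm was -3.95 (SD 0.15 over 4 times), or 15.4-fold lower in the resistant culture, the third in size among the brighter probes. Within 595sp it was -0.21 (SD 0.39 over 5 times). In the authors' normalized intensities the gene averaged 513 ± 34.2 in 589bm resistant and 6860 ± 713 in 589bm sensitive arrays (SD, n = 4 and 5). The summed intensity of the 10 muscle markers was 872 to 940 in 589bm resistant and 880 to 991 in 589bm sensitive arrays, with each of them below log2 8.

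Wwc2 was near the median of all probes in 589bm resistant, at 6.73, 6.75, 6.51 and 6.32, against 9.85, 10.04, 9.50, 9.76 and 9.76 in 589bm sensitive. The resistant culture of 595sp gave 8.86, 9.07, 8.69, 8.27 and 8.55, against 9.56, 9.70, 9.45, 9.46 and 9.56 in the sensitive one. Every resistant array thus lay below every sensitive array of its line. The difference was -3.14 (SD 0.29, 8.8-fold) in 589bm and -0.86 (SD 0.23, 1.81-fold) in 595sp. A second probe gave -2.77 and -0.93, and the dimmest of the 3 gave -0.94 and -0.78, with no overlap in either line.

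Osr2, Npw and Armcx2 were bright mainly in the sensitive culture of 589bm. Osr2 read 6.53, 6.97, 6.64 and 6.94 in 589bm resistant, against 9.22, 9.38, 9.42, 9.33 and 9.69 in 589bm sensitive. In 595sp it read 6.17, 6.46, 6.01, 6.44 and 6.69 in the resistant culture and 7.04, 7.11, 6.97, 7.05 and 7.67 in the sensitive culture. The groups were apart in both lines, by -2.64 (SD 0.13, 6.25-fold) in 589bm and by -0.81 (SD 0.17) in 595sp. Its second probe gave -2.01 in 589bm without overlap and -0.54 in 595sp with overlap. Among 13 stromal and fibroblast markers, the only one above log2 8 was Thy1 in 589bm resistant, with a mean of 8.86 against 7.49 in 589bm sensitive. The 13 markers summed to 1490 to 1930 in 589bm resistant and 1190 to 1280 in 589bm sensitive arrays. Their part in the levels of Osr2 was not tested.

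Npw was the gene whose difference depended most on the time. In 589bm resistant it read 6.58, 6.40, 6.23 and 6.20, while in 589bm sensitive it read 10.71, 10.68, 9.56, 8.18 and 7.68. The sensitive culture thus approached the dim resistant level without reaching it. Both 595sp cultures stayed near the median of all probes, at 6.00 to 6.63 in the resistant and 6.10 to 6.74 in the sensitive culture. The 589bm difference was -4.13 at 0 h and -1.47 at its smallest, with a mean of -2.68 (SD 1.20, 6.39-fold), and in 595sp it was -0.10. The authors' normalized intensities spanned 160 to 182 in 589bm resistant and 289 to 1740 in 589bm sensitive arrays.

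Armcx2 was bright in 1 culture. Its levels were 6.51, 6.67, 6.32 and 6.73 in 589bm resistant, against 8.77, 8.81, 8.62, 8.92 and 8.90 in 589bm sensitive, so the groups were far apart. In 595sp the resistant arrays spanned 6.36 to 6.79 and the sensitive arrays 6.43 to 6.78. The difference was -2.24 (SD 0.27, 4.73-fold) in 589bm and -0.09 (SD 0.18) in 595sp. Of other cell types, the 5 erythroid markers summed to 413 to 512 in 589bm resistant and 461 to 1310 in 589bm sensitive arrays, none of them above log2 8 on average. The 7 B cell markers summed to 5180 to 7840 in 589bm resistant, with 3 of them above log2 8, and to 6040 to 15500 in 589bm sensitive arrays, with 4. The 6 T cell markers summed to 1270 to 1950 in 589bm resistant and 1110 to 3070 in 589bm sensitive arrays, with Cd3g and Cd2 above log2 8 in both. Their part in the 589bm differences was not tested.

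Tmsb10 and Zscan12 were higher in the resistant culture of 589bm, in different ways. Tmsb10 read 12.46, 12.21, 12.26 and 12.60 in 589bm resistant, against 9.96, 9.78, 10.08, 10.32 and 10.63 in 589bm sensitive. The 595sp cultures were brighter than both, at 13.35 to 13.79 in the resistant and 13.25 to 13.62 in the sensitive culture. Here the sensitive culture of 589bm was the one that stood apart. The difference was 2.13 (SD 0.26, 4.39-fold) in 589bm and 0.04 (SD 0.15) in 595sp. A second probe gave 1.90 and -0.06, and the last of its 3 probes, dim at 6.14 to 6.97 on all arrays, gave 0.31 and 0.13 with overlap in both lines.

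Zscan12 read 9.47, 9.43, 9.47 and 9.53 in 589bm resistant, against 7.44, 7.66, 7.50, 8.05 and 7.72 in 589bm sensitive. The 595sp arrays, at 7.97 to 8.32 in the resistant and 7.84 to 8.19 in the sensitive culture, were nearer to the 589bm sensitive level, so that 589bm resistant was the high culture. The difference was 1.80 (SD 0.27, 3.48-fold) in 589bm and 0.11 (SD 0.11) in 595sp.

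Reln, Lxn and Gja1 were the genes with their large difference in 595sp. Reln read 11.28, 11.56, 11.05, 10.86 and 11.21 in 595sp resistant, against 7.31, 7.38, 7.30, 6.97 and 6.86 in 595sp sensitive. In 589bm it was bright in both cultures, with 10.69, 10.64, 10.52 and 10.80 in the resistant and 11.42, 11.93, 10.39, 9.71 and 9.61 in the sensitive culture. The resistant arrays of 589bm lay within the range of the sensitive ones. Within 595sp the difference was 4.03 (SD 0.24, 16.3-fold), and within 589bm it ran from -0.73 at 0 h to 1.19 at its highest, with a mean of 0.38 (SD 0.83). The finding for Reln rests on 1 probe: its other 4 probes were not among the brighter 50% and had culture means of 6.09 to 6.48, with differences of -0.09 to 0.23. Of 8 neuron markers, the only one above log2 8 was Map2 in 589bm sensitive, with a mean of 8.31 against 7.91 in 589bm resistant, and the summed markers were 773 to 822 in 595sp resistant and 688 to 792 in 595sp sensitive arrays. Their part in the levels of Reln was not tested.

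Lxn was dim in 3 cultures and bright in the sensitive culture of 595sp. It read 6.14, 6.08, 6.21, 6.39 and 6.42 in 595sp resistant, against 8.62, 8.73, 8.76, 9.28 and 9.30 in 595sp sensitive. The 589bm arrays spanned 6.16 to 6.37 in the resistant and 6.18 to 6.38 in the sensitive culture. The difference was -2.69 (SD 0.18, 6.44-fold) in 595sp and -0.03 (SD 0.15) in 589bm.

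Gja1 read 6.69, 6.35, 6.25, 6.14 and 6.60 in 595sp resistant, against 8.69, 8.81, 9.02, 8.68 and 8.31 in 595sp sensitive. In 589bm it read 6.51, 6.72, 6.18 and 6.21 in the resistant and 7.23, 6.79, 6.87, 7.04 and 7.08 in the sensitive culture, apart by a narrow margin. The difference was -2.29 (SD 0.43, 4.9-fold) in 595sp and -0.65 (SD 0.35) in 589bm. Of the stromal markers, none exceeded log2 8 in 595sp, and their sum was 1110 to 1230 in the resistant and 1110 to 1160 in the sensitive arrays. The 7 B cell markers summed to 7280 to 13400 in 595sp resistant and 11100 to 20000 in 595sp sensitive arrays, with 3 and 5 of them above log2 8. Of 9 macrophage and myeloid markers, Mpeg1 alone exceeded log2 8, in the sensitive culture of each line, and their sum was 798 to 960 in 595sp resistant and 1170 to 2180 in 595sp sensitive arrays. Their part in the 595sp differences was not tested.

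**Figure D2:**
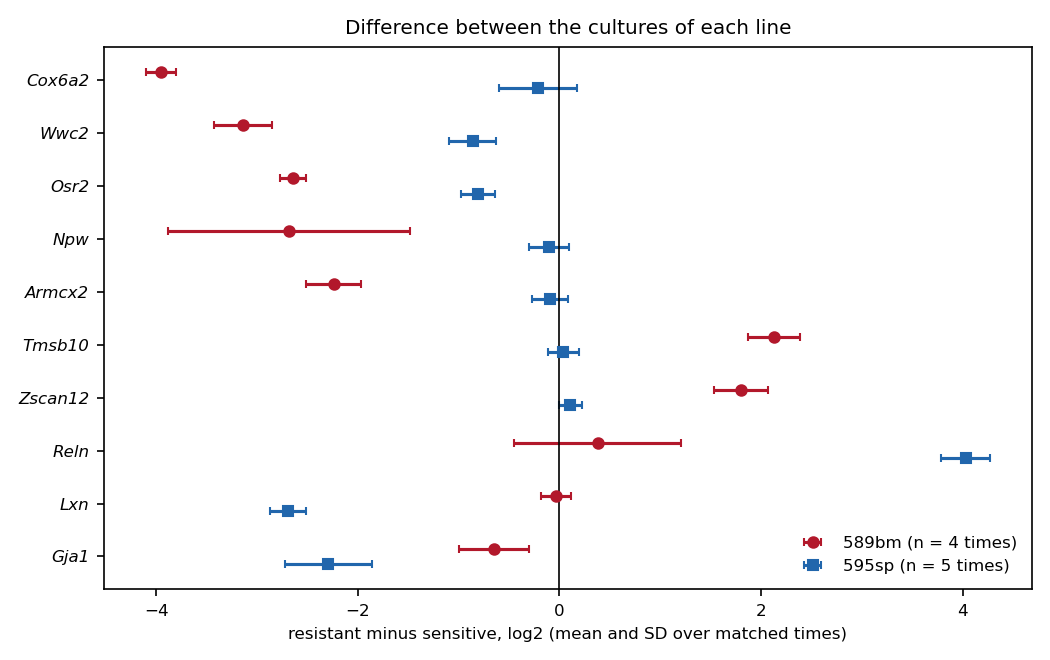
Resistant minus sensitive difference of each gene in log2 units, as mean and SD over matched times, with circles for 589bm (4 times) and squares for 595sp (5 times). Cox6a2 lies at -3.95 in 589bm and -0.21 in 595sp, and Reln at 4.03 in 595sp and 0.38 in 589bm; Wwc2, Osr2 and Gja1 are below 0 in both lines.

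**Figure D3:**
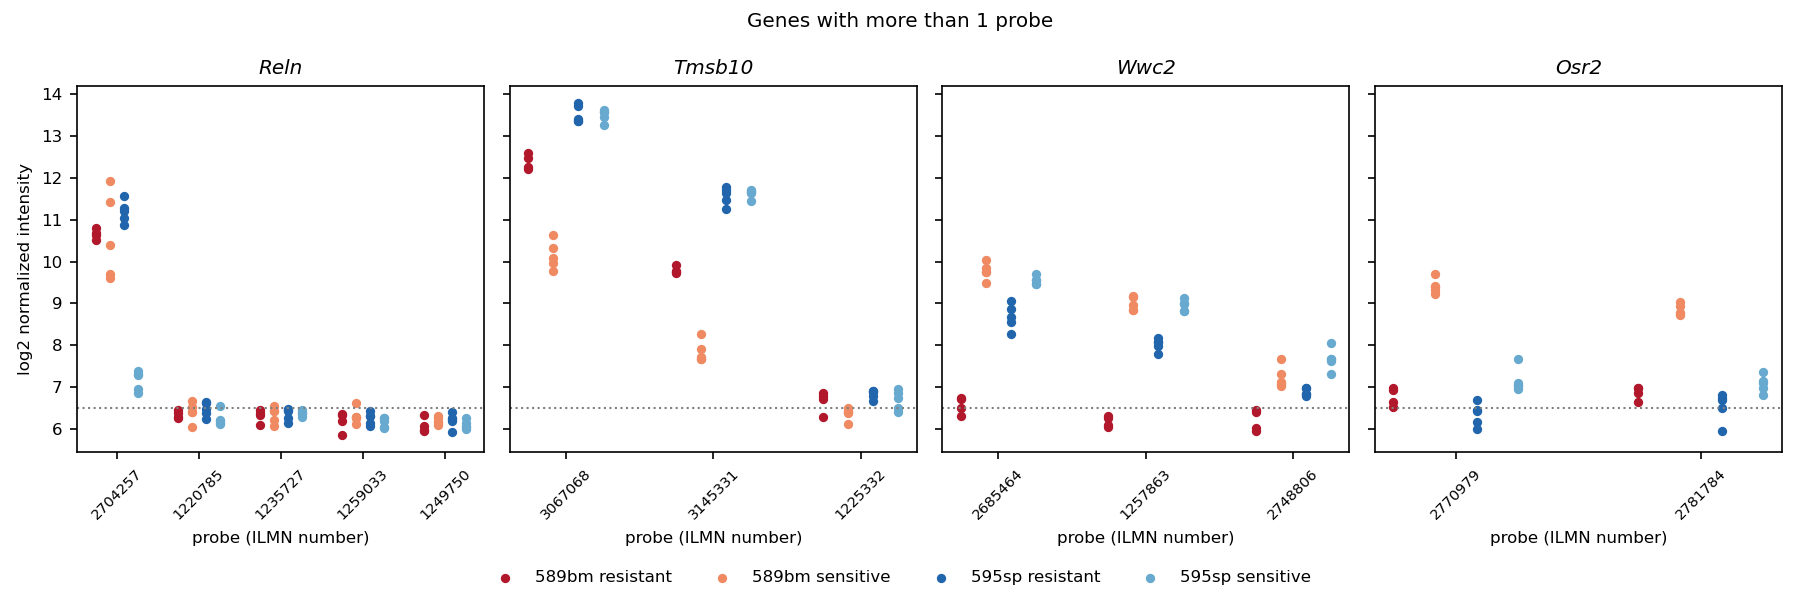
Log2 normalized intensity of every probe of the 4 genes with more than 1 probe, with 1 point per array and the cultures side by side in colour; the dotted line is the median of all probes. For Reln 1 of 5 probes separates the cultures, while all 3 Wwc2 probes and both Osr2 probes place 589bm resistant below 589bm sensitive.

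The choice did not take every large difference. The smallest among the 10 in its own line was that of Zscan12, at 1.80. Outside the 10, and among brighter probes with 1 gene symbol, the largest in 589bm was that of Hspa1a, an inducible Hsp70 chaperone, at -3.37, followed by Klf9, a Krüppel-like transcription factor, at -3.18 and Tceal9 at -2.93. These are means over matched times, so in 589bm the 2 h arrays do not enter. With the sensitive 2 h array included, Hspa1a averaged 7.53 in 589bm resistant and 10.12 in 589bm sensitive arrays, closer together than the matched value. Its level in 589bm sensitive thus varied with time. In 595sp, Vpreb1 and Igll1, the surrogate light chain genes of B cell precursors, were at -5.35 and -5.18, and Papss2, which makes the sulfate donor of the cell, was at -4.91.

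Over the 19 arrays the genes fell into sets with like patterns, described here with no test because the arrays share 4 cultures. Armcx2 and Osr2 had a Pearson correlation of 0.958, Gja1 and Lxn of 0.924 and Cox6a2 and Wwc2 of 0.889. Lxn and Reln ran oppositely, with -0.950, as did Wwc2 with Zscan12 (-0.938) and Armcx2 with Tmsb10 (-0.925). Among all brighter probes, the genes most like Armcx2 were Tdrkh, Popdc3 and Sirpa (0.984, 0.983 and 0.978), and Sirpa was also the nearest to Osr2 (0.945), before Npr2 and Adam17. Cox6a2 was most like the histone genes H2ac13 and H2ac7 (0.970 and 0.963) and Suz12, Npw most like Pdzrn4 (0.982), Sult6b1 and Wfdc13, and Wwc2 most like Zmynd8 (0.935), Pdk3 and Ext1. For Tmsb10 they were Tctex1d2 (0.973), Cibar1 and Tmem14c, and for Zscan12 Scamp1 (0.942), Ssbp2 and Zfp473. For Reln they were Cd2, an adhesion molecule of lymphocytes, and Ifi30, a lysosomal thiol reductase, both at 0.981, with Nes at 0.965. Lxn was nearest to Brk1 (0.986), Camk1 and Emp1 (both 0.984), and Gja1 to Tespa1 (0.960), Emc3 and Thumpd3.

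The change over time was not used to choose the genes, and it was tested within each culture, as late arrays (8, 16 and 24 h) minus early arrays (0 and 2 h, in 589bm resistant 0 h alone). The p-values come from a limma fit over all brighter probes with Benjamini-Hochberg adjustment, and the error behind them is the scatter of the times within single cultures, not between cultures. In 589bm sensitive, Npw and Reln fell and the other 8 genes did not pass; 8.51% of all brighter probes passed in that culture, 4.42% as lower. Npw averaged 8.47 in the late and 10.70 in the early arrays, a change of -2.23 (SE 0.33, adjusted p = 0.000175). Reln averaged 9.90 in the late and 11.68 in the early arrays, a change of -1.77 (SE 0.22, adjusted p = 2.08e-05). For both genes every late array was below every early array. Npw had means of 6.26 to 6.36 in the other cultures, so its place among the brighter probes rested on 589bm sensitive, the culture tested. With no filter on dim probes its change was -2.23 (adjusted p = 3.41e-05 by limma).

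None of the 10 genes passed in 589bm resistant, where 0.336% of the brighter probes passed and none of the genes had an unadjusted p under 0.05. Armcx2, Gja1, Lxn, Npw, Osr2 and Wwc2 had means of 6.26 to 6.77 in that culture, where a fall could hardly be seen. There Npw changed by -0.30 (SE 0.42) and Reln by -0.04 (SE 0.27). None passed in 595sp resistant either, with a background of 1.5% and 2 genes at an unadjusted p under 0.05, Wwc2 at -0.46 (SE 0.17, adjusted p = 0.229) and Tmsb10 at -0.37 (SE 0.16, adjusted p = 0.306). Armcx2, Gja1, Lxn, Npw and Osr2 were likewise dim there, with means of 6.25 to 6.49. In 595sp sensitive, with a background of 7.88%, the nearest was Lxn, which averaged 9.11 in the late and 8.67 in the early arrays (0.44, SE 0.16, adjusted p = 0.109 by limma). It passed in the authors' normalized values. Tmsb10 in 589bm sensitive averaged 10.34 in the late and 9.87 in the early arrays (0.48, SE 0.16, adjusted p = 0.0705 by limma).

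**Figure D4:**
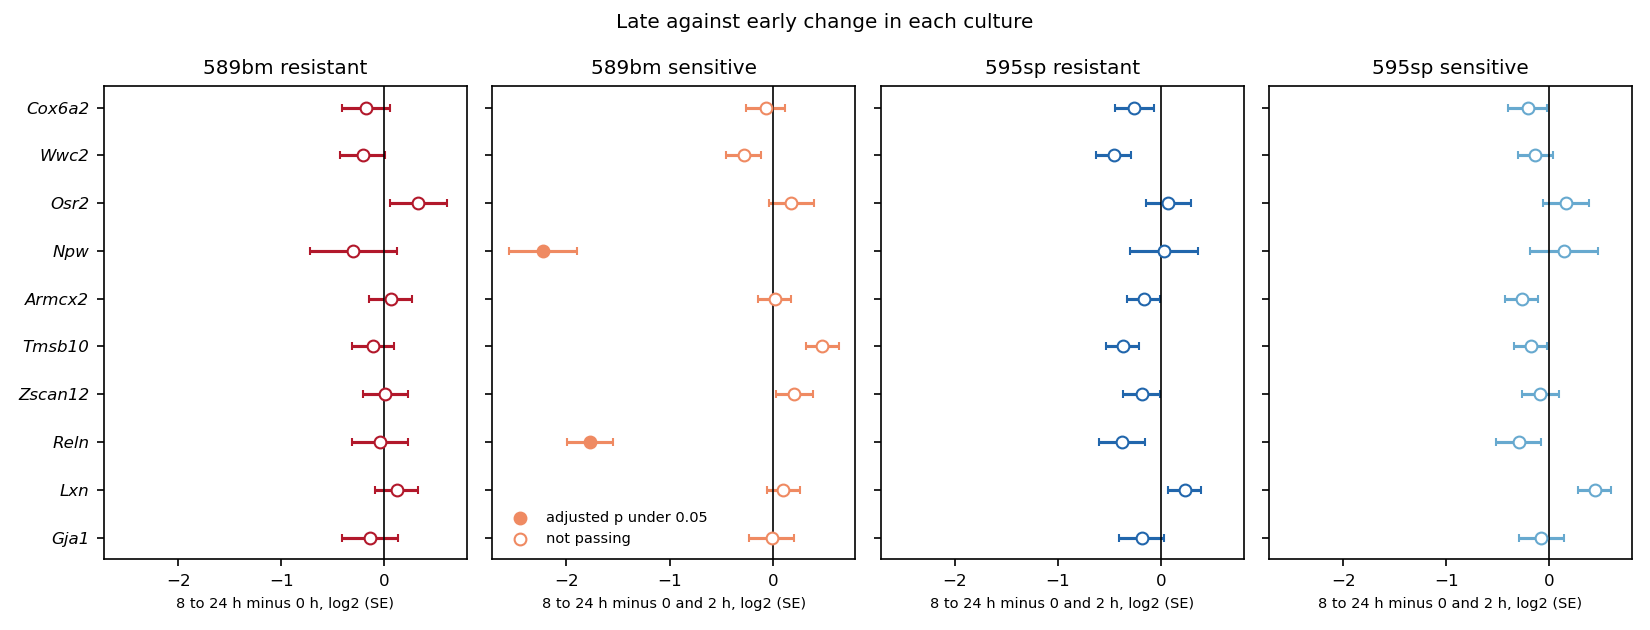
Late minus early change of each gene in log2 units with its standard error, 1 panel per culture; filled points passed an adjusted p of 0.05. The filled points are Npw at -2.23 and Reln at -1.77, both in 589bm sensitive, and the other points are open.

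In a fit of the sensitive cultures of both lines with the culture as a block, Reln fell by 1.04 on the log2 scale (SE 0.21, adjusted p = 0.00124 by limma) and Npw by 1.05 (SE 0.33, adjusted p = 0.0317), against a background of 16.2%, 8.06% as lower. Neither pooled value describes both lines: in 595sp sensitive the changes were -0.30 (SE 0.22) for Reln and 0.14 (SE 0.33) for Npw, which is dim there. The pooled call of Npw was lost without the 589bm sensitive 0 h, 2 h, 16 h or 24 h array, at -0.77, -0.78, -0.87 and -0.76. Without the block neither gene passed, with adjusted p-values of 0.557 for Npw and 0.598 for Reln. In the resistant cultures of both lines none of the genes passed, with a background of 3.34% and 1 gene, Wwc2, at an unadjusted p under 0.05. Armcx2, Gja1, Lxn, Npw and Osr2 were dim in both resistant cultures, so a fall could hardly be seen. The difference between the 2 kinds of culture passed for none of the 10, with a background of 0.0707% and unadjusted p-values under 0.05 for Reln (0.79, SE 0.32) and Tmsb10 (-0.42, SE 0.20).

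Whether the fall in 589bm sensitive differed from the change in other cultures was tested with contrasts chosen after the data were seen. Npw was near the median of all probes in 589bm resistant (6.20 to 6.58) and in 595sp sensitive (6.10 to 6.74). A fall of Npw could not be seen there, so its contrasts mostly restate its fall in 589bm sensitive. The contrast within a line compares, between phases, the resistant minus sensitive differences on which the genes were chosen. Against 589bm resistant, the resistant minus sensitive difference of the changes was 1.93 for Npw (SE 0.54, adjusted p = 0.279 by limma) and 1.74 for Reln (SE 0.35, adjusted p = 0.064), so neither passed; 0.0663% of the brighter probes did. Without the 589bm sensitive 8 h array both passed, at 2.47 and 1.98, and in the authors' normalized values Reln passed (1.65, adjusted p = 0.036). The same contrast within 595sp gave -0.10 (SE 0.47) for Npw and -0.08 (SE 0.31) for Reln, with a background of 0.0707%. Between the sensitive cultures, 589bm minus 595sp, the change of Npw differed by -2.37 (SE 0.47, adjusted p = 0.0473) and that of Reln by -1.47 (SE 0.31, adjusted p = 0.064), with a background of 0.119%. The Npw call was lost in 17 of the 19 fits that left out 1 array. Reln passed without the 589bm sensitive 8 h array (-1.71, adjusted p = 0.00293) and in the authors' normalized values (-1.5, adjusted p = 0.0151).

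Around these genes, 76 other genes of 11 lists on their pathways and families had a brighter probe, and their resistant minus sensitive differences could be tested, with the time as a term. In 589bm 8 were higher and 10 lower in the resistant culture, against 8.45% and 8.75% of all brighter probes (17.2% in either direction). In 595sp 3 were higher and 12 lower, against 9.58% and 9.06% (18.6% in either direction). Under median scaling the 595sp count fell to 7. The passes lost were those of Cox6b1, Cox6a1, Tmsb4x, Furin, Pafah1b1, Scand1, Zkscan5 and Zscan21, each lower in the resistant culture.

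Among the other subunits of cytochrome c oxidase, 3 were higher and 1 was lower in 589bm resistant, where Cox6a2 was low. In 589bm Cox6b1 (0.59, SE 0.11), Cox4i1 (0.57, SE 0.10) and Cox6a1 (0.45, SE 0.11), the last being the form of the same subunit found in most tissues, were higher in the resistant culture, and Cox7a2l (-0.53, SE 0.13), an assembly factor of respiratory supercomplexes, was lower, of 10 tested. The list's median was 0.37, against -0.01 for all brighter probes. These 3 rises missed the threshold under median scaling, at 0.25, 0.17 and 0.14. In 595sp Cox6b1 and Cox6a1 were lower, at -0.43 (SE 0.10) and -0.35 (SE 0.09), with a list median of -0.07. Neither passed in 595sp under median scaling.

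Among genes of actin monomer binding, Tmsb4x and Cfl1 passed with opposite signs in the lines. Tmsb4x, the other widely expressed beta thymosin, was 1.24 higher (SE 0.13, adjusted p = 1.7e-05 by limma) in 589bm resistant, like Tmsb10, and cofilin, Cfl1, was 0.91 higher (SE 0.14), while Dstn was at 0.63 and Cap1 at -0.49. In 595sp, where Tmsb10 differed by 0.04, Tmsb4x was lower (-0.64, SE 0.09), as were Cfl1 (-1.43, SE 0.13) and the profilin gene Pfn2 (-1.89, SE 0.15). Of 9 tested, 3 were higher and 1 lower in 589bm and 3 were lower in 595sp. Tmsb4x in 595sp missed the threshold under median scaling, at -0.46.

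Of the reelin pathway, the receptor gene Lrp8 was higher in 589bm resistant (0.67, SE 0.17), and the kinase gene Fyn (-0.63, SE 0.18) and Pafah1b1 (-0.43, SE 0.14), a regulator of dynein, were lower, of 8 tested. In 595sp, where Reln itself had its large difference, Furin (-0.47, SE 0.13), a proprotein convertase, and Pafah1b1 (-0.44, SE 0.11) were lower. Neither of them passed in 595sp under median scaling. No other connexin passed in either line, of 5 tested. The nearest were Gjb2 in 589bm (0.37, adjusted p = 0.119 by limma) and Gjd2 in 595sp (-0.09, adjusted p = 0.544). Panx1, a channel protein related in function to connexins, was lower in 589bm resistant (-0.70, SE 0.15).

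In the Hippo pathway 2 of 13 genes passed in 589bm, the kinase gene Stk4 at -0.91 (SE 0.15) and the transcription factor gene Tead2 at 0.50 (SE 0.15), and 0 of 13 in 595sp, where the largest was Mob1b at -0.28 (adjusted p = 0.117 by limma). Among carboxypeptidases none of 7 passed in 589bm, where Cpn1 was at -0.45 (adjusted p = 0.317 by limma). In 595sp, where Lxn differed, Cpm was higher in the resistant culture (0.68, SE 0.13) and Cpn1 lower (-1.37, SE 0.16). Npb, the ligand gene related to Npw, was at 0.16 in 589bm and 0.25 in 595sp, and Eya1, the tested gene from the list of developmental factors around Osr2, at 0.28 and 0.08. None of these 4 values passed.

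Of 13 other SCAN zinc finger genes, none was higher in 589bm resistant, where Zscan12 was high. Zkscan17 (-0.70, SE 0.16), Zscan21 (-0.63, SE 0.16) and Zkscan5 (-0.62, SE 0.15) were lower there. In 595sp Zscan20 (0.69, SE 0.11) and Zkscan17 (0.67, SE 0.14) were higher, and Scand1 (-0.52, SE 0.10), Zkscan5 (-0.51, SE 0.14) and Zscan21 (-0.43, SE 0.11) lower. The lower calls in 595sp missed the threshold under median scaling. Of 4 armadillo genes related to Armcx2, Bhlhb9 was lower in 589bm resistant (-0.81, SE 0.14) and Armc10 in 595sp resistant (-1.51, SE 0.13).

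Among the tested genes next to the 10 on the chromosome, only Mlf1 and Vps13b passed with the sign of their neighbour where that neighbour differed most. The fits were those of the list genes, so each pass describes 1 pair of cultures. In these fits 17.2% of all brighter probes passed in 589bm and 18.6% in 595sp, so nothing is read from how many neighbours passed. Beside Lxn, on chromosome 3, Mlf1 was lower in the resistant culture of both lines, by -1.14 in 589bm and -0.57 in 595sp, whereas Lxn differed in 595sp alone, and Gfm1, which overlaps Lxn, was at -0.20 and -0.11 and did not pass. Beside Reln, on chromosome 5, Orc5 was at 0.50 in 589bm and -1.20 in 595sp, against the sign of Reln there. Beside Osr2, on chromosome 15, Vps13b was at -0.51 in 589bm, with the sign of Osr2, and at 0.61 in 595sp, against it. Itgad, which overlaps Cox6a2 on chromosome 7, was at 0.19 in 589bm, without passing, and 0.95 in 595sp. Dctd beside Wwc2, on chromosome 8, was at 0.35 and 0.63, of which the second passed. That pass was narrow (adjusted p = 0.0456 by limma), and its adjusted p-value reached 0.188 among the alternatives. Kcmf1 beside Tmsb10, Slc9a3r2 and Zfp598 beside Npw, Hsf2 beside Gja1 and Zkscan3 beside Zscan12 passed in neither line, and the other 11 neighbours were not among the brighter probes.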

How the data were processed

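Per the file headers, the deposited non-normalized table holds 1-colour bead array signal intensity for 45281 probes on 20 arrays, with no detection p-values. The authors' second deposited table holds linear intensity that is the same in sorted order on every array (median 177), so it was quantile-normalized, and it served as an alternative. RNA was column-purified and biotin-labelled by an Illumina amplification kit, per the labels. The software behind these tables is not given in the sources used here.

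Intensities were background-corrected (normexp, offset 50), taken to log2 and quantile-normalized on 19 arrays with limma 3.58.1 in R 4.3.3, and the brighter 50% of probes (22641) were tested with lmFit and eBayes with a trend, Benjamini-Hochberg adjustment and a threshold of 0.05. The checks on simulated data recovered the known changes. The number of arrays limits the precision. Probes were named from the platform annotation: 34885 had 1 symbol, 18 several and 10378 none, and only the first kind was named. Arrays were grouped by title. The block is the culture, a pairing that comes from the cell line, and each of the 19 arrays was nearest to its own culture. Time points are not replicates, so SDs over times and the p-values of resistant minus sensitive differences describe 1 pair of cultures.

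The 10 genes, the 11 pathway lists, the 9 marker lists and the tests were chosen with earlier results of these data known. Named were all 10 genes with every probe, the 3 genes outside them most correlated with each, the 3 largest differences outside them in each line, up to 4 passing genes (or the largest) of each list, and chromosome neighbours from a RefSeq table of GRCm38.p6. Alternatives were median scaling, no filter on dim probes, all 20 arrays, the authors' normalized values, 0 h alone as early, no block, any probe of a gene, and each array left out. Added after the data were seen were the fits without 595sp resistant, those with the 595sp resistant arrays whose characteristics say resistant, and the differences between changes.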

Additional observations from a re-analysis of the deposited data

Results flagged for a closer look

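The late minus early change of Npw differed between the sensitive cultures of the lines, but only 589bm could show a fall. Its mean was 9.36 in 589bm sensitive and 6.36 in 595sp sensitive, below the median of all probes. Its late minus early change was -2.23 (SE 0.33) in 589bm sensitive and 0.14 (SE 0.33) in 595sp sensitive, and the difference of these changes, 589bm minus 595sp, was -2.37 (SE 0.47, adjusted p = 0.0473 by limma). The contrast was chosen after the data were seen. Npw fell in 589bm, where all 3 late arrays were below both early arrays, while in 595sp it stayed near the median of all probes, at 6.10 to 6.74. Leaving out each array in turn gave -2.91 to -1.97, with the call lost in 17 of 19 fits and adjusted p-values of 2.82e-05 (without the 589bm sensitive 8 h array) to 0.315. It was also lost with all 20 arrays (-2.26, adjusted p = 0.767) and with 0 h alone as early (-2.19, adjusted p = 0.947), and it passed under median scaling (-2.61, adjusted p = 0.00729), without a filter (-2.37, adjusted p = 0.0192) and in the authors' normalized values (-2.02, adjusted p = 0.00934).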

How the results depend on the processing

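The genes were chosen on resistant minus sensitive differences, so nothing is read from how many were apart in at least 1 line. No share of all brighter probes was computed for that count. It was 10 of 10, stayed at 10 in each fit that left out 1 array and was 9 with all 20 arrays. In the authors' normalized values the differences of the genes were smaller, for example -1.55 for Armcx2, -1.81 for Lxn and 3.39 for Reln. With all 20 arrays, the near-blank array included, signs turned in 589bm for Cox4i1 (-0.71), Cox6a1 (-0.41), Cox6b1 (-0.65), Dstn (-0.09) and Gja1 (0.37), 0 of the 76 list genes passed there instead of 18, and of the 10 genes 1 instead of 2 passed in 589bm sensitive and 0 instead of 2 in the sensitive cultures of both lines. The count for the sensitive cultures of both lines was 1 with 0 h alone as early, 0 with no replicate block and 1 without the 595sp resistant culture. In the authors' values 1 gene instead of 0 passed in 595sp sensitive, and under median scaling 7 list genes instead of 15 in 595sp. With 1 array left out, the genes passing ranged from 2 to 3 in 589bm sensitive (3 without its 8 h array), 0 to 1 in 595sp sensitive (1 without its 8 h array) and 1 to 3 in the sensitive cultures of both lines, and stayed at 0 in 589bm resistant, 595sp resistant, the resistant cultures of both lines and the difference between the 2 kinds of culture. The list genes ranged from 10 (without the 589bm sensitive or resistant 8 h array) to 21 in 589bm and from 9 (without the 595sp sensitive or resistant 16 h array) to 15 in 595sp. The cause was not tested.

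Counts of all passing probes moved more. Median scaling called 3 instead of 76 in 589bm resistant, 1080 instead of 1926 in 589bm sensitive, 132 instead of 339 in 595sp resistant, 221 instead of 756 in both resistant cultures and 25 instead of 16 for the difference, which no filter raised to 27. It put the median of all brighter probes at -0.13 instead of 0 in 595sp sensitive, -0.11 instead of -0.01 in both sensitive cultures and 0.15 instead of 0 for the difference. The share of higher calls was 22.5% against 48.1% in 589bm sensitive, 10.5% against 49.3% in 595sp sensitive, 14.0% against 50.3% in both sensitive cultures, 55.7% against 44.4% in both resistant cultures, 76.0% against 18.8% for the difference, and, for resistant minus sensitive, 18.5% against 49.1% in 589bm and 65.1% against 51.4% in 595sp. In the authors' values it was 54.9% against 72.4% in 589bm resistant. All 20 arrays left 64 probes in 589bm sensitive, 0 in 595sp resistant, 62 in 595sp sensitive, 38 and 225 in both resistant and both sensitive cultures, 0 for the difference and 0 for resistant minus sensitive in 589bm. With 0 h alone as early, the counts in the same order were 526, 9, 346, 242, 2068 and 7, and 25 in 589bm resistant. No replicate block gave 36, 1183 and 0 for both resistant cultures, both sensitive cultures and the difference, and leaving out 595sp resistant gave 13 and 0 for the first and last and 21 in 589bm resistant. Leaving out 1 array gave 23 to 127 in 589bm resistant, 666 (without its 0 h array) to 3053 (without its 8 h array) in 589bm sensitive, 18 (without its 2 h array) to 480 in 595sp resistant, 318 (without its 0 h array) to 2204 in 595sp sensitive, 250 to 880 and 2648 to 4467 in both resistant and both sensitive cultures, 3 to 251 (without the 589bm sensitive 8 h array) for the difference, and, for resistant minus sensitive, 1806 to 3890 in 589bm and 2923 to 4222 in 595sp, so the backgrounds move likewise.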

Other observations

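Some genes related to the 10 changed over time in the cultures, and nothing is read from how many did. In the sensitive cultures of both lines 12 of the 76 list genes were higher and 6 lower in the late arrays, against 16.2% of all brighter probes. Under median scaling 14.0% of all passing probes in these cultures were higher instead of 50.3%, and the list genes were not fitted over time under it. Among those that rose were Pafah1b1 of the reelin pathway (0.78, adjusted p = 0.000101 by limma), Cox7a2l (0.80, adjusted p = 4.1e-05) and the SCAN genes Zscan21 (0.83), Zkscan14 (0.76) and Zkscan17 (0.72). Cpn1, a carboxypeptidase gene, rose by 1.29 (adjusted p = 0.000174 by limma), while Cpm (-0.51) and the Hippo kinase gene Stk4 (-0.66) fell. In the resistant cultures of both lines 3 of 76 were higher and 0 lower, namely Zscan21 (0.67), Pafah1b1 (0.62) and Cox7a2l (0.50), against a background of 3.34%. These genes were named after their values were seen.

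For 5 of the 10 genes, at least 2 of the 3 most like genes outside the 10 shared a chromosome. The share of all genes for which this holds was not computed, so nothing is read from this count. All 3 genes most like Lxn, which is on chromosome 3, and 2 of the 3 most like Gja1, on chromosome 10, are on chromosome 6, which holds 4.97% of the genes with a brighter probe. Their resistant minus sensitive differences in 595sp were -1.80 for Brk1, -2.06 for Camk1, -4.05 for Emp1, -1.95 for Emc3 and -1.53 for Thumpd3, and in 589bm they were between -0.23 and 0.29. Likewise 2 of the 3 genes most like Zscan12, which is on chromosome 13, are on that chromosome, Scamp1 (1.87 in 589bm, -0.14 in 595sp) and Ssbp2 (1.12 and 0.24), and chromosome 13 holds 3.49% of the genes. The histone genes H2ac13 and H2ac7, most like Cox6a2, are also on chromosome 13, and Cd2 and Nes, most like Reln, are on chromosome 3. What lies behind these shared chromosomes was not tested.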
